A study of Mus musculus with 9 samples.

Results

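The transcripts of p53, of its inhibitors Mdm2 and Mdm4 and of 7 genes listed as p53 targets were followed through mouse hearts. The hearts came from adult mice labelled as germline Parkin knockouts (KO) or as wild-type (WT). The genes were taken by symbol from the table of read counts per gene, and all 10 of Trp53, Mdm2, Mdm4, Cdkn1a, Ccng1, Phlda3, Zmat3, Gadd45a, Gadd45b and Gadd45g were found among its 23457 rows. All 10 also passed the filter on low counts, which left 12640 genes for testing. Libraries came from 4 KO hearts and 5 WT hearts, each labelled as a heart of its own. Both groups shared the C57BL/6J background, and the labels give no treatment and no age beyond adult. RNA came from the frozen apex of the ventricles per the protocol, whereas the tissue is labelled whole heart. The knockout is germline, so every cell type of the heart carries it, and the sources used here do not give which part of the Parkin gene it removes. The mouse hearts accompanied work on Drosophila hearts, and the question put to them is how transcripts of the heart differ with genotype. Reads of the targeted gene, which the files call Park2, came to 82, 53, 54 and 37 in KO hearts 1 to 4 and to 74, 14, 8, 44 and 16 in WT hearts 1 to 5. In CPM, the usual depth-scaled count with library sizes scaled by the TMM method, that is 3.12 ± 0.57 in KO hearts and 3.10 ± 1.14 in WT hearts (SD, n = 4 and 5), with overlapping ranges and a log2 fold change of 0.06 (95% interval -0.48 to 0.60, adjusted p = 0.862, edgeR). A count over the whole gene does not check a deletion of unknown extent, so the genotype labels were not borne out by it. KO heart here means a heart labelled as a knockout, and each direction below rests on those labels.

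p53, encoded by Trp53 in the mouse, is a transcription factor that is held at a low level because the ubiquitin ligase Mdm2 marks it for degradation, while the related protein Mdm4 blocks its activity. After DNA damage and other stress this hold is loosened, and p53 then activates genes that stop the cell cycle, repair DNA or start apoptosis, together with Mdm2 itself, which closes a negative feedback loop. Control of p53 lies largely at the level of the protein, which these data do not measure. Cardiomyocytes of the adult heart rarely divide, and in that tissue the pathway is known mainly for its part in cell loss and metabolism under stress. The protein Parkin is a ubiquitin ligase best known for marking damaged mitochondria for removal.

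The promoters of p53 and of genes listed as its targets were searched for the p53 half-site. It is the short palindromic sequence of which paired copies bind the p53 tetramer. RefSeq (GRCm38.p6) gave 11 windows, from 250 bases before to 50 bases after an annotated start, for 9 of the 10 genes, with a pair of windows each for Mdm4 and Cdkn1a. Windows are written 5′ to 3′ on the strand of the gene, and capitals mark exact matches to the consensus p53 half-site. The palindrome was searched on both strands. The sequences of Trp53 (chr11:69580109-69580408, + strand), Mdm2 (chr10:117710709-117711008, - strand), the upstream start of Cdkn1a (chr17:29090729-29091028, + strand), Ccng1 (chr11:40755237-40755536, - strand) and Phlda3 (chr1:135765835-135766134, + strand) are given here.
Trp53: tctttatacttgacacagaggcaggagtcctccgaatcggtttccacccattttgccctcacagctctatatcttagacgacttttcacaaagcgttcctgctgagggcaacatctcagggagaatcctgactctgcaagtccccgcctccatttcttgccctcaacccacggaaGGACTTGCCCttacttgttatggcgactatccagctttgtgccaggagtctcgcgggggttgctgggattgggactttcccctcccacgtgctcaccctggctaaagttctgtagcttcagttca
Mdm2: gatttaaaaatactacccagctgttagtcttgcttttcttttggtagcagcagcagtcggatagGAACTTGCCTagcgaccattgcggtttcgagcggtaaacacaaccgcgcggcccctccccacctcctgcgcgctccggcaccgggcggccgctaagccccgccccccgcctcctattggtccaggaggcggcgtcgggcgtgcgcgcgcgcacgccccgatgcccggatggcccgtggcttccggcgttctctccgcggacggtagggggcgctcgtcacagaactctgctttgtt
Cdkn1a: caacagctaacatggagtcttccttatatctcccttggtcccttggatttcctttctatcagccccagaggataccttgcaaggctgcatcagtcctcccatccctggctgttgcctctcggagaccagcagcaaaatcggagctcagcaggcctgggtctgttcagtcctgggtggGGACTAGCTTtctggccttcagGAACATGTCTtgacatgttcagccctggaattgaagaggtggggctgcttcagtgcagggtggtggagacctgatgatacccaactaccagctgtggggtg
Ccng1: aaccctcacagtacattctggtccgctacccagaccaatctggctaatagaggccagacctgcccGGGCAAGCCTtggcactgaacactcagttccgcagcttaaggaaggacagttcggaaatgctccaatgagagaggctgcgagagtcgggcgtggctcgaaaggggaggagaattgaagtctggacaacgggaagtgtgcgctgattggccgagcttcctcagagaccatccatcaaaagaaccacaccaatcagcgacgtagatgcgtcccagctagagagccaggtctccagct
Phlda3: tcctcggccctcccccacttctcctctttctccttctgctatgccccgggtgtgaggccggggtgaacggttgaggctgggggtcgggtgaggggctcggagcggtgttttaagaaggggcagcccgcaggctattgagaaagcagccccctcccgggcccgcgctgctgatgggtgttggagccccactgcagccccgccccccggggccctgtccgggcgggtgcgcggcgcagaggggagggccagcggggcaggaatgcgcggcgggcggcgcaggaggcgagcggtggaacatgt
Exact half-sites stood in 5 of the 9 genes and in 5 of the 11 windows, against 8.36% of 32544 promoter windows of the same length. The window of Cdkn1a held a pair of them, beginning 73 and 51 bases before the start, and the window of its other start, 2790 bases downstream, held none. Single half-sites began 75 bases before the start in Trp53, 186 in Mdm2, 185 in Ccng1 and 40 in Gadd45a. Phlda3, which had the largest rise among these genes in the read counts, held no complete match within its window. That window ends in gaacatgt, letters that fit the beginning of a half-site and are cut off by the window edge. Whether the site is complete beyond the edge was not searched. The TATA box motif TATAAA, searched on both strands, stood upstream of Gadd45b and Gadd45g, at 46 and 27 bases before the start, and in reverse in Trp53, 248 bases before the start. It did not overlap a half-site and occurred in 13.6% of all windows. A match describes letters in the window and is not evidence of binding, and sites outside the windows were not searched.

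The libraries differed between genotypes in ways that touch each result below. Assigned reads ranged from 11637206 to 15777844 in KO hearts and from 4415183 to 20827699 in WT hearts. Mitochondrially encoded genes took 10.04% to 15.4% of reads in KO hearts and 32.6% to 58.2% in WT hearts. The log2 deviation of a gene in a heart followed the GC content of its transcript, with a slope of 0.16 to 0.66 per 10 percentage points in KO hearts and of -0.40 to -0.20 in WT hearts. The trend with length had slopes of -0.14 to -0.07 per doubling in KO hearts and 0.02 to 0.12 in WT hearts. Genotype and these library properties cannot be told apart in this design. Differences in the read counts are therefore given as counted and again after the GC and length trends of each heart were removed. That step takes out biological differences too where they run with GC content or length. Cardiomyocyte markers were all detected, with a summed level of 80893 to 92560 CPM in KO hearts and 65370 to 74853 CPM in WT hearts.

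Of the 10 genes, 2 were higher and 4 were lower in KO hearts by edgeR's quasi-likelihood test at a Benjamini-Hochberg adjusted p under 0.05 over all genes. Phlda3 and Gadd45g rose, while Trp53, Mdm4, Cdkn1a and Ccng1 fell. Mdm2, Zmat3, Gadd45a and Gadd45b did not pass the test. Among all tested genes the same rule called 51.4%, with 26.2% higher and 25.2% lower, so calls in the 10 genes were about as frequent as in the table as a whole. With GC and length trends removed, none of the 10 was called higher and 2 were called lower, Trp53 and Cdkn1a, against 38.1% of all genes called, 18.7% higher and 19.4% lower. The median log2 fold change of the 10 was -0.17 as counted and -0.06 after that correction, beside -0.0059 and -0.0043 over all genes. The groups did not overlap for 1 gene that was higher, Phlda3, and 1 that was lower, Cdkn1a, while 22.3% of all genes lay wholly higher and 19.3% wholly lower in KO hearts.

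**Figure D1:**
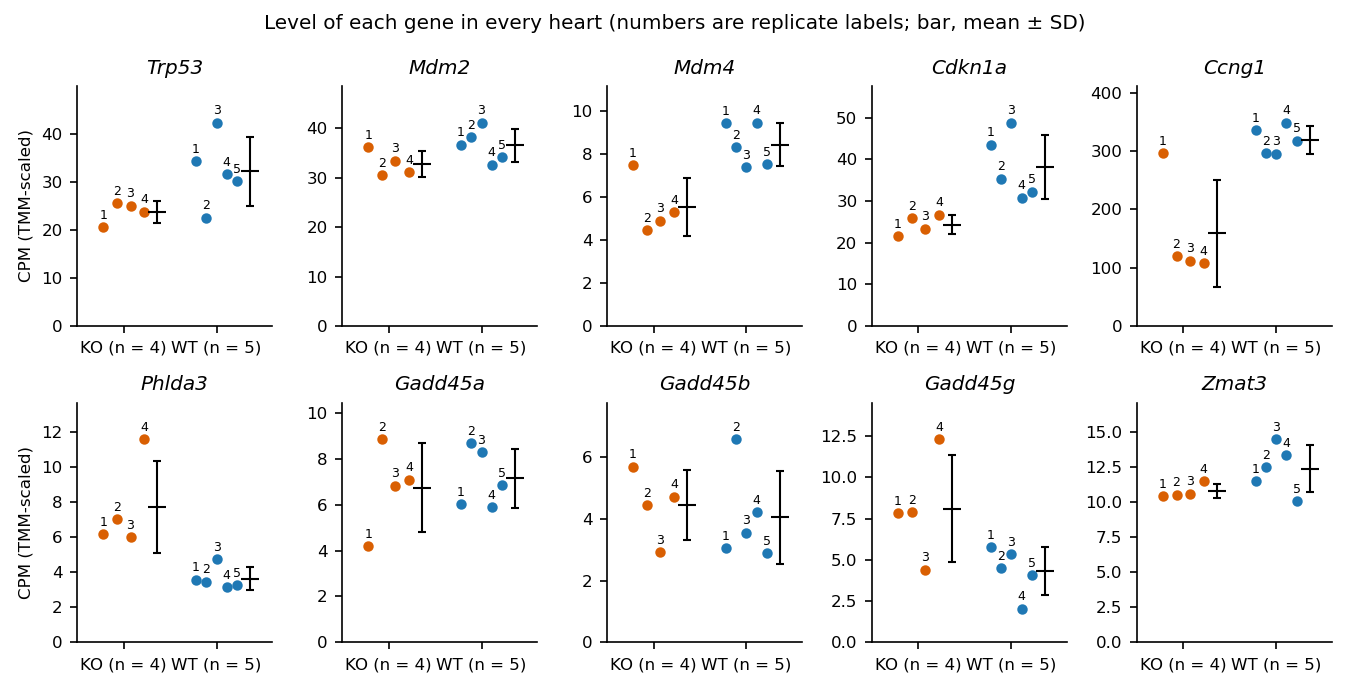
Level of each of the 10 genes in every heart, in CPM relative to the TMM-scaled library size, KO hearts (n = 4) left of WT hearts (n = 5), with replicate numbers beside the points and bars for mean ± SD. KO heart 1 lies at 296 CPM for Ccng1, far from the 108 to 119 CPM of the other KO hearts, and the groups are apart only for Cdkn1a and Phlda3.

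Trp53 (ENSMUSG00000059552, chr11:69580359-69591873 of GRCm38, + strand) encodes p53 itself. Its level was 20.6, 25.6, 25 and 23.8 CPM in KO hearts 1 to 4, against 34.4, 22.5, 42.4, 31.7 and 30.2 CPM in WT hearts 1 to 5. The KO hearts lay close together, and WT heart 2, the shallowest library with 65 reads of the gene, was the only WT heart within their range. The mean was 23.7 ± 2.25 CPM in KO hearts and 32.2 ± 7.17 CPM in WT hearts (SD, n = 4 and 5). The log2 fold change was -0.45 ± 0.16 (SE, adjusted p = 0.0259, edgeR). It lost the call without KO heart 1 (-0.38, adjusted p = 0.0622) and without WT heart 3 (-0.36, adjusted p = 0.0534). The transcript has 54% GC, and the 1444 tested genes within 1 percentage point of that had a median log2 fold change of 0.32, the opposite direction. The fall was larger once GC and length trends were removed, -0.78 ± 0.14 (adjusted p = 0.00083, edgeR). In bulk tissue, fewer cells of a type and less RNA per cell cannot be told apart.

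Mdm2 (ENSMUSG00000020184, chr10:117688875-117710758, - strand), the ligase that targets p53 and is itself induced by p53, did not pass the test. It stood at 36.2, 30.5, 33.5 and 31.1 CPM in KO hearts and at 36.7, 38.2, 41.2, 32.7 and 34.1 CPM in WT hearts. The ranges overlapped widely, with a log2 fold change of -0.15 (95% interval -0.40 to 0.11, adjusted p = 0.319, edgeR). The sign turned after the GC and length correction, to 0.21 (interval -0.02 to 0.44, adjusted p = 0.139, edgeR), again without a call.

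Mdm4 (ENSMUSG00000054387, chr1:132959484-133030561, - strand), the partner of Mdm2 that blocks the activity of p53, had few reads for its length. Its level was 7.51, 4.46, 4.90 and 5.30 CPM in KO hearts, against 9.46, 8.32, 7.40, 9.48 and 7.54 CPM in WT hearts. KO heart 1 reached the lowest WT hearts, and the other KO hearts lay below all of them. The log2 fold change was -0.63 ± 0.19 (adjusted p = 0.0123, edgeR), close to the median of -0.58 among the 1080 tested genes within 1 percentage point of its GC content of 43.3%. The corrected value was -0.05 (interval -0.41 to 0.31, adjusted p = 0.840, edgeR). A processed pseudogene, Gm29257, lies within the gene on the other strand, and the libraries keep no strand.

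Cdkn1a (ENSMUSG00000023067, chr17:29090976-29100727, + strand) encodes p21, the inhibitor of cyclin-dependent kinases that carries much of the cell-cycle arrest by p53. Its level was 21.5, 25.8, 23.4 and 26.8 CPM in KO hearts, against 43.5, 35.4, 48.9, 30.8 and 32.3 CPM in WT hearts. The highest KO heart stayed below the lowest WT heart. The mean was 24.4 ± 2.39 CPM in KO hearts and 38.2 ± 7.74 CPM in WT hearts (SD, n = 4 and 5), and the log2 fold change was -0.64 ± 0.15 (adjusted p = 0.0027, edgeR). The 1418 tested genes within 1 percentage point of its GC content of 54.4% had a median of 0.36. After the GC and length correction the log2 fold change was -1.0 ± 0.14 (adjusted p = 0.00012, edgeR). Cdkn1a was called lower in 23 of 23 alternative settings for the counts, with log2 fold changes between -1.04 and -0.56. These settings include the main fit read at a threshold of 0.1, which could not lose the call. A gene model of unknown kind, AC167363.2, overlaps it on the opposite strand.

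**Figure D2:**
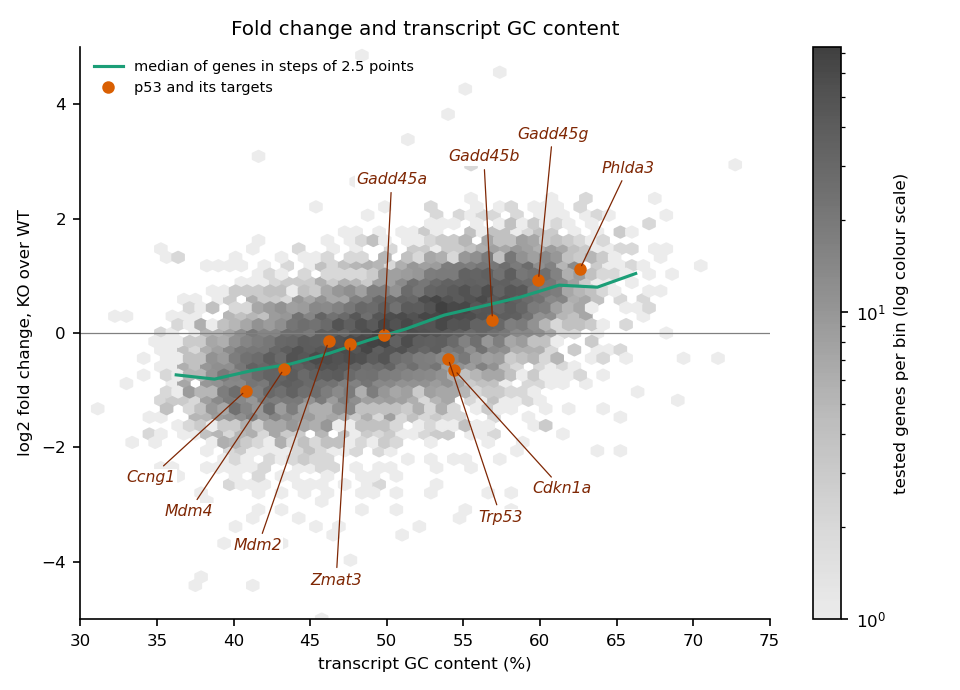
Log2 fold change of KO over WT hearts by edgeR (vertical axis) against transcript GC content in percent (horizontal axis), with all tested genes as grey hexagons shaded on a log scale, the running median as a green line and the 10 genes as orange points. Most of the 10 lie near the running median, while Trp53 and Cdkn1a, at 54% and 54.4% GC, lie below it at -0.45 and -0.64.

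Ccng1 (ENSMUSG00000020326, chr11:40748552-40755311, - strand) encodes cyclin G1, which brings protein phosphatase 2A to Mdm2. It was the most abundant of the 10 transcripts by FPKM and varied widely among the KO hearts. Its level was 296, 119, 112 and 108 CPM in KO hearts, against 335, 296, 295, 348 and 318 CPM in WT hearts. KO hearts 2 to 4 lay far below every WT heart, and KO heart 1 lay within the WT range. The log2 fold change was -1.0 ± 0.25 (adjusted p = 0.00388, edgeR), and without KO heart 1 it was -1.50 (adjusted p = 1.99e-06), in a fit that called 26.5% of all genes lower. KO heart 1 also had the lowest GC slope of the KO hearts, 0.16, against 0.38 to 0.66 in the others. The transcript of Ccng1 is the most AT-rich of the 10, with 40.8% GC, and the 669 tested genes within 1 percentage point had a median log2 fold change of -0.68. The corrected log2 fold change was -0.38 ± 0.20 (adjusted p = 0.153, edgeR). With the same correction and without KO heart 1 it was -0.72 (adjusted p = 0.00051), where 18.8% of all genes were called lower. The part of KO heart 1's library in these values was not tested further.

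Phlda3 (ENSMUSG00000041801, chr1:135766119-135769136, + strand), a p53 target whose product competes with the kinase Akt for membrane lipids, moved the other way. Its level was 6.18, 7.05, 6.02 and 11.6 CPM in KO hearts, against 3.59, 3.47, 4.74, 3.16 and 3.25 CPM in WT hearts. Every KO heart lay above every WT heart, and KO heart 4 was the highest. The mean was 7.71 ± 2.63 CPM in KO hearts and 3.64 ± 0.64 CPM in WT hearts (SD, n = 4 and 5). Its log2 fold change of 1.11 ± 0.23 (adjusted p = 0.00108, edgeR) stood beside a median of 0.74 among the 180 tested genes within 1 percentage point of its GC content, 62.6%. The corrected value was 0.23 (interval -0.17 to 0.62, adjusted p = 0.366, edgeR). The count was small, from 10 to 162 reads per heart.

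Zmat3 (ENSMUSG00000027663, chr3:32334792-32366014, - strand), a p53 target that encodes an RNA-binding zinc finger protein, did not pass the test. It had 10.5, 10.5, 10.6 and 11.5 CPM in KO hearts and 11.5, 12.5, 14.5, 13.3 and 10.1 CPM in WT hearts. The KO hearts were nearly identical and lay inside the lower part of the WT range. The log2 fold change was -0.19 (interval -0.50 to 0.12, adjusted p = 0.298, edgeR), and 0.11 (interval -0.20 to 0.42, adjusted p = 0.575) after the correction.

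The Gadd45 proteins are small acidic proteins that respond to growth arrest and DNA damage, bind p21 and the proliferation factor Pcna, and activate the kinase Map3k4 upstream of p38 and Jnk. Gadd45a is the family member known as a direct p53 target. Of the 3 genes, only Gadd45g passed the test as counted, with no test of the difference between them. Gadd45a (ENSMUSG00000036390, chr6:67035096-67037457, - strand) had 4.18, 8.85, 6.83 and 7.09 CPM in KO hearts and 6.01, 8.67, 8.29, 5.90 and 6.85 CPM in WT hearts. Both the lowest and the highest heart were KO hearts, and the log2 fold change was -0.03 (interval -0.50 to 0.44, adjusted p = 0.920, edgeR). Corrected, Gadd45a stood at -0.07 (interval -0.55 to 0.42, adjusted p = 0.849, edgeR). The span of a non-coding gene, E230016M11Rik, overlaps that of Gadd45a on the opposite strand and has its own row in the count table. Whether their exons overlap was not examined, and the libraries keep no strand to part reads from shared bases. Gadd45b (ENSMUSG00000015312, chr10:80930073-80932204, + strand) had 5.70, 4.46, 2.93 and 4.72 CPM in KO hearts and 3.05, 6.59, 3.55, 4.21 and 2.90 CPM in WT hearts. The highest and the lowest heart were both WT hearts, the highest being the shallow WT heart 2 with 19 reads. Its log2 fold change was 0.23 (interval -0.32 to 0.78, adjusted p = 0.475, edgeR) as counted and -0.34 (interval -0.92 to 0.24, adjusted p = 0.346) after the correction.

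Gadd45g (ENSMUSG00000021453, chr13:51846678-51848468, + strand) had 7.84, 7.89, 4.40 and 12.3 CPM in KO hearts, against 5.78, 4.51, 5.33, 2.04 and 4.06 CPM in WT hearts. KO heart 3 lay among the WT hearts and the other KO hearts above all of them. The mean was 8.11 ± 3.24 CPM in KO hearts and 4.34 ± 1.46 CPM in WT hearts (SD, n = 4 and 5), with a log2 fold change of 0.92 ± 0.31 (adjusted p = 0.0215, edgeR). The call was lost without KO heart 4 (adjusted p = 0.0812), without WT heart 4 (adjusted p = 0.0643) and without WT heart 5 (adjusted p = 0.0512), and under limma-voom with quality weights (adjusted p = 0.0662). The corrected log2 fold change was 0.12 (interval -0.45 to 0.69, adjusted p = 0.757, edgeR), and the 613 tested genes within 1 percentage point of its GC content of 59.9% had a median of 0.71.

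**Figure D3:**
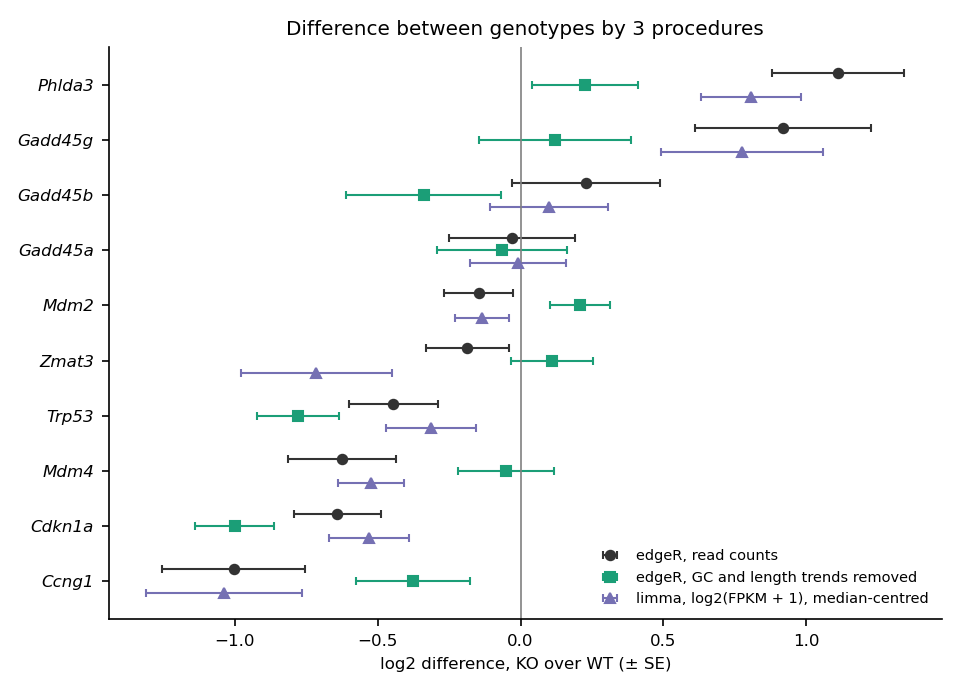
Log2 difference of KO over WT hearts (horizontal axis, ± SE) for each of the 10 genes (vertical axis) by edgeR on read counts, by edgeR with GC and length trends removed, and by limma on median-centred log2(FPKM + 1). Cdkn1a, Trp53, Mdm4, Ccng1 and Gadd45a lie below 0 by all 3 procedures. Of the 10 genes only Cdkn1a is called by each, at -0.64, -1.0 and -0.53, though its FPKM difference without centring was -0.04. The corrected values of Phlda3 and Gadd45g come down to 0.23 and 0.12.

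Levels were compared between genes in FPKM, fragments per kilobase of transcript scaled to depth, from the authors' deposited table. In KO hearts the order by mean FPKM was Ccng1, Trp53, Cdkn1a, Mdm2, Gadd45g, Gadd45a, Phlda3, Gadd45b, Zmat3 and Mdm4. In WT hearts it was Ccng1, Cdkn1a, Trp53, Mdm2, Gadd45a, Gadd45g, Gadd45b, Zmat3, Phlda3 and Mdm4. Ccng1 averaged 59.8 ± 38.1 FPKM in KO hearts and 80.5 ± 23.1 FPKM in WT hearts (SD, n = 4 and 5), above every other gene in each heart. Mdm4 averaged 2.06 ± 0.61 FPKM in KO hearts and 2.14 ± 0.70 FPKM in WT hearts and stood last in both groups. Most neighbours in these orders overlapped. The ranges of neighbours were apart only for Ccng1 over Trp53 and Gadd45b over Zmat3 in KO hearts, and for Ccng1 over Cdkn1a and Mdm2 over Gadd45a in WT hearts. Trp53 and Cdkn1a did not differ beyond their spread in either group, at 18.2 ± 1.38 and 17.3 ± 0.95 FPKM in KO hearts and 16.6 ± 5.16 and 18.3 ± 5.43 FPKM in WT hearts. Mdm2 exceeded Mdm4 in each heart, by a ratio of 5.65 to 8.02 in KO hearts and 4.08 to 6.84 in WT hearts.

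**Figure D4:**
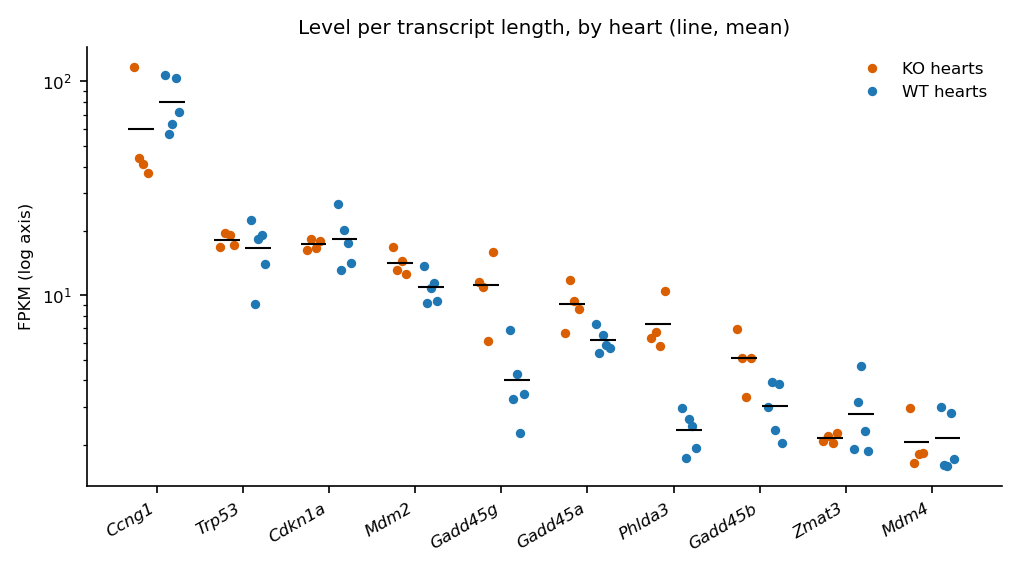
FPKM of the 10 genes in every heart on a log axis, KO hearts (orange) left of WT hearts (blue) for each gene, with lines at the group means. Ccng1 is highest in both groups, at 59.8 FPKM in KO hearts and 80.5 FPKM in WT hearts, and Mdm4 lowest, at 2.06 and 2.14 FPKM.

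The FPKM table gave other calls for the 10 genes, and the cause was not tested. On the log2(FPKM + 1) scale, which understates the change of low genes, the median over all genes was 0.44 higher in KO hearts, and limma called 47.2% of genes higher and 6.09% lower. Of the 10 genes, 4 were called higher, namely Phlda3 (1.30, adjusted p = 0.00037, limma), Gadd45g (1.27, adjusted p = 0.00357), Gadd45b (0.59, adjusted p = 0.0330) and Gadd45a (0.48, adjusted p = 0.0318), and none lower. Leaving out any one of KO hearts 2, 3 and 4 or WT hearts 2, 4 and 5 ended the call of Gadd45a (adjusted p = 0.0535 to 0.120). Leaving out KO heart 1, 2 or 4 or WT heart 3 or 5 ended that of Gadd45b (adjusted p = 0.0643 to 0.101), as did testing without a filter (adjusted p = 0.0576, limma). After each heart was centred on its median, limma called 25.4% of genes higher and 28.4% lower, and 2 of the 10 genes higher and 4 lower. The higher ones were then Phlda3 (0.81, adjusted p = 0.00349) and Gadd45g (0.77, adjusted p = 0.0405). The lower ones were Ccng1 (-1.04, adjusted p = 0.00958), Zmat3 (-0.71, adjusted p = 0.0428), Cdkn1a (-0.53, adjusted p = 0.00966) and Mdm4 (-0.52, adjusted p = 0.00393, limma). Trp53 was at 0.18 as deposited (adjusted p = 0.526) and at -0.31 when centred (adjusted p = 0.113, limma), so its fall in the counts had no call in the FPKM table. Cdkn1a differed by -0.04 in FPKM as deposited (adjusted p = 0.887, limma).

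Other transcriptional targets of p53 moved in both directions. Of 28 tested, 9 were higher and 8 lower in KO hearts, and 6 and 6 with GC and length trends removed, with medians of 0.26 and 0.10. The share called, 60.7% as counted and 42.9% corrected, lay near the 51.4% and 38.1% of all genes. The genes named from this and the following lists were chosen among called genes whose groups did not overlap, so that separation comes from the choice. Bax, which opens the mitochondrial outer membrane in apoptosis, had 13.4, 13.6, 15.3 and 17 CPM in KO hearts, against 6.05, 3.47, 6.81, 5.76 and 4.06 CPM in WT hearts (1.47 ± 0.18, adjusted p = 2.53e-05, edgeR). The corrected value was 0.49 (adjusted p = 0.0502). Aen, an exonuclease of the apoptotic response, rose by 0.94 on the log2 scale (adjusted p = 9.15e-05, edgeR), and by 0.85 (adjusted p = 0.00017) with the correction. The lower targets included Polk, a DNA polymerase that passes over damaged bases (-1.50, adjusted p = 0.000165, edgeR), and Ei24, a membrane protein that p53 induces (-0.69, adjusted p = 0.00033). Both stayed called with the correction, at -0.86 and -0.65.

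Among 19 tested regulators of p53 and Mdm2, 2 were higher and 11 lower in KO hearts, with a median log2 fold change of -0.50. With GC and length trends removed 0 were higher and 8 lower, with a median of -0.28. Over all genes 26.2% were higher and 25.2% lower as counted, and 18.7% and 19.4% corrected. The list holds kinases, ligases, acetyltransferases and other enzymes that act on p53 or Mdm2. Rfwd2, the ligase also called Cop1, had 11.6, 8.49, 8.49 and 7.73 CPM in KO hearts, against 18.9, 20.1, 18.7, 17.4 and 18.3 CPM in WT hearts (-1.03 ± 0.15, adjusted p = 8.24e-05, edgeR). Ep300, the acetyltransferase that serves as a coactivator of p53, had 72.2, 64.1, 66.7 and 80.3 CPM in KO hearts, against 107, 217, 209, 123 and 159 CPM in WT hearts (-1.19 ± 0.19, adjusted p = 0.000168, edgeR). Hipk2, a kinase of p53, fell by 0.95 on the log2 scale, and Huwe1, a ligase of p53 with a very long transcript, by 1.11 (adjusted p = 0.000156 and 0.000133, edgeR). With the correction these 4 stood at -0.42, -1.17, -1.15 and -0.85 and all kept their calls. The correction does not take up the mitochondrial share. Across WT hearts Ep300 and Huwe1 rose in the order of that share, which is also the order of falling depth. Hipk2 and Rfwd2 did not follow that order. The part of these library properties was not tested. Of 6 tested relatives and cofactors of p53, 1 was higher and 2 were lower, and 0 and 3 with the correction, in all 50% called by either fit, against 51.4% and 38.1% of all genes. Trp63, the p53 relative of stratified epithelia, was at 1.66 to 2.23 CPM in KO hearts and 3.25 to 10.7 CPM in WT hearts (-1.64 ± 0.32, adjusted p = 0.000608, edgeR). Its corrected value was -1.12 (adjusted p = 0.0138, edgeR). Bclaf1, an RNA-processing factor named for its binding to Bcl2 relatives, was at -1.43 (adjusted p = 1.51e-05) and at -0.66 with the correction.

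Downstream of p21, 23 genes of the G1 machinery were tested, with 3 higher and 9 lower in KO hearts, and 4 and 4 with GC and length trends removed. The share called, 52.2% as counted and 34.8% corrected, was close to the 51.4% and 38.1% of all genes. E2f6, a repressor of the E2F family, fell by 0.97 on the log2 scale (adjusted p = 0.000134, edgeR), and by 0.90 with the correction. Ccnd3, a D-type cyclin that drives Cdk4 and Cdk6, rose by 0.97 (adjusted p = 0.000259, edgeR) but stood at 0.34 without a call (adjusted p = 0.0626) once corrected. Lin54, a DNA-binding subunit of the DREAM complex through which p21 represses cell-cycle genes, was at -0.70 (adjusted p = 0.00327) and at -0.06 with the correction (adjusted p = 0.872, edgeR). E2f1, the activating E2F, had 1.52, 1.39, 1.42 and 4.22 CPM in KO hearts, against 4.71, 56.9, 25.5, 5.69 and 12.2 CPM in WT hearts. The WT hearts differed widely among themselves, with the highest levels in the shallow WT hearts 2 and 3. Across WT hearts E2f1 rose in the order of mitochondrial share, which is also that of falling depth. The correction does not take up the mitochondrial share, and its part was not tested. The log2 fold change was -3.16 ± 0.67 (adjusted p = 0.00121, edgeR). With the correction E2f1 was at -3.75 (adjusted p = 0.000775, edgeR).

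Of the other CDK inhibitors, 4 were tested, with 2 higher and 0 lower, and 2 and 2 with GC and length trends removed. That is 50% called as counted and 100% corrected, beside 51.4% and 38.1% of all genes. With 4 genes these shares say little. Cdkn2d, which encodes the Cdk4 and Cdk6 inhibitor p19, had 8.60, 9.51, 9.15 and 11.2 CPM in KO hearts, against 3.59, 1.39, 2.07, 2.67 and 1.97 CPM in WT hearts. It rose by 1.87 ± 0.22 on the log2 scale (adjusted p = 1.63e-05, edgeR), opposite in direction to Cdkn1a, and with the correction it was at 1.39 (adjusted p = 9.59e-05). Among genes of S, G2 and M phase only 15 of 25 passed the filter on low counts, and 2 were higher and 4 lower, or 2 and 2 with the correction. These are 40% and 26.7% of those tested, below the 51.4% and 38.1% called among all genes. Mki67, the proliferation marker, was at 2.52, 2.35, 2.02 and 1.57 CPM in KO hearts, against 5.47, 4.16, 16.0, 7.66 and 7.31 CPM in WT hearts (-1.87 ± 0.31, adjusted p = 0.000217, edgeR). With the correction Mki67 was at -1.47 (adjusted p = 0.00177, edgeR). Top2a, the topoisomerase of dividing cells, was at -0.98 (adjusted p = 0.0175) and at -0.41 without a call when corrected. Pcna, the sliding clamp of DNA replication that p21 and the Gadd45 proteins bind, rose by 0.49 on the log2 scale (adjusted p = 0.0111, edgeR), and by 0.86 with the correction. Mcm2, a subunit of the replicative helicase, rose by 0.90 (adjusted p = 0.00325, edgeR) and was at 0.49 without a call when corrected.

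Among 11 tested partners and kinases downstream of Gadd45 proteins, 2 were higher and 7 lower in KO hearts, and 1 and 5 with GC and length trends removed, where all genes had 25.2% lower as counted and 19.4% corrected. Map2k4, a kinase that activates Jnk and p38, was at 15.5, 10.2, 11.0 and 7.80 CPM in KO hearts, against 34.4, 29.5, 28.7, 38.6 and 31.3 CPM in WT hearts (-1.55 ± 0.18, adjusted p = 1.71e-05, edgeR). The p38 kinases' activators moved apart, Map2k3 rising by 1.08 on the log2 scale (adjusted p = 6.15e-05) and Map2k6 falling by 0.90 (adjusted p = 0.00129, edgeR). Mapk8, which encodes Jnk1, fell by 1.21 (adjusted p = 7.62e-05, edgeR). With the correction these 4 were at -1.15, 0.73, -0.65 and -0.46 and kept their calls. Of 8 tested genes for cyclin G2 and phosphatase 2A subunits, 1 was higher and 2 were lower, and 0 and 3 with the correction, which is 37.5% in both fits, against 51.4% and 38.1% of all genes. The regulatory subunit Ppp2r5e fell by 0.89 (adjusted p = 0.00111, edgeR) and stood at -0.47 when corrected, and its relative Ppp2r5b rose by 0.65 (adjusted p = 0.00133) and stood at 0.02 without a call.

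**Figure D5:**
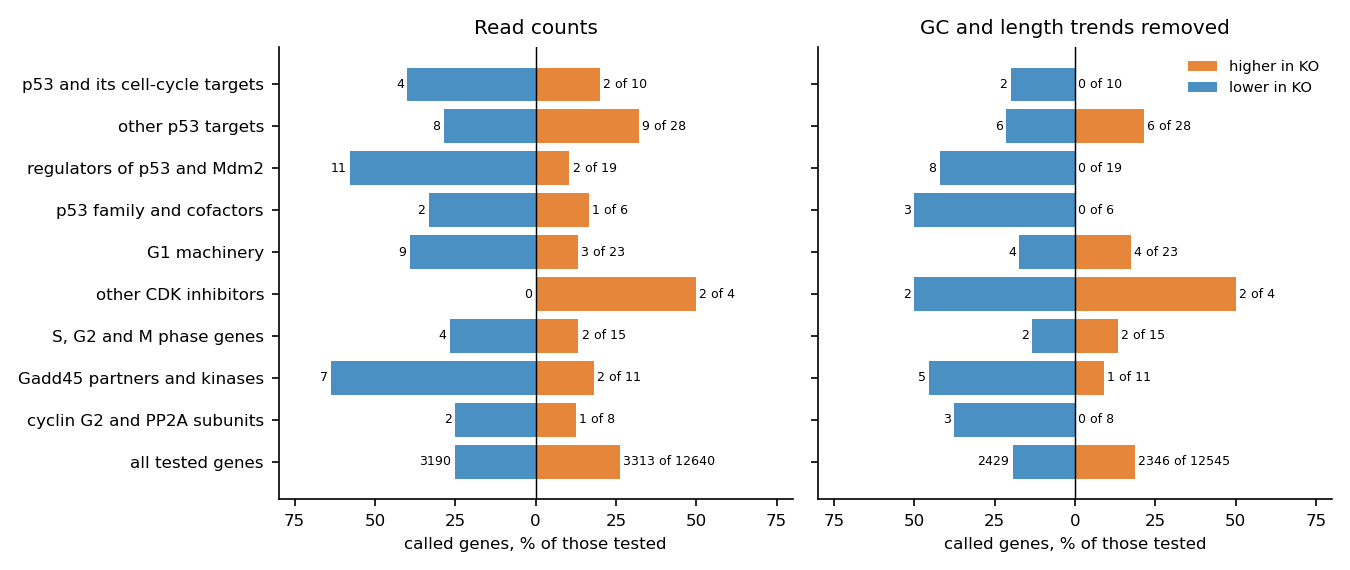
Share of tested genes called higher (orange, right) and lower (blue, left) in KO hearts for each gene group, in percent, with counts beside the bars, from read counts on the left panel and with GC and length trends removed on the right. For regulators of p53 and Mdm2, 11 of 19 were lower as counted and 8 with trends removed, and for p53 and its cell-cycle targets 4 and 2 of 10.

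Markers of other cell types were read beside these groups. The summed level of 7 skeletal muscle markers was 1461 to 2025 CPM in KO hearts and 680 to 1166 CPM in WT hearts, without overlap. Nearly all of that sum was Ckm, which cardiomyocytes also express, at 1647 CPM in KO hearts and 947 CPM in WT hearts. The other 6 together came to 10.6 to 23.8 CPM in KO hearts and 1.39 to 6.62 CPM in WT hearts, with Myh2 at 14.3 and 1.23 CPM and Tnnt3 at 0.44 and 0.43 CPM on average. The sum of the 10 cardiomyocyte markers given above did not overlap either, and Myh6 was its largest part, at 41898 CPM in KO hearts and 28586 CPM in WT hearts. Without Myh6 the sum was 40587 to 47929 CPM in KO hearts and 38445 to 44790 CPM in WT hearts, and the groups overlapped. Single cardiomyocyte markers went both ways, with 4 higher and 2 lower by edgeR, 60% called beside 51.4% of all genes. With the correction 2 were higher and 2 lower, 40% beside 38.1%. The median log2 fold change of these 10 markers was 0.19 as counted and -0.04 corrected. Of the higher markers, Myl3 was at 1.24 (adjusted p = 1.22e-05) and at 0.67 when corrected (adjusted p = 0.000156, edgeR). Mybpc3 was at 1.05 (adjusted p = 0.000145) and at 0.56 when corrected (adjusted p = 0.00802, edgeR). Myh6 and Tnni3, also higher as counted, were at 0.12 and 0.01 without a call when corrected. Of the lower markers, Pln was at -1.43 (adjusted p = 4.59e-06) and at -0.64 when corrected (adjusted p = 0.000112, edgeR). Ttn was at -0.67 (adjusted p = 0.0179) and at -0.28 without a call when corrected (adjusted p = 0.0739, edgeR). Summed levels overlapped for 8 fibroblast markers (591 to 1052 CPM in KO hearts and 552 to 717 CPM in WT hearts), 8 endothelial markers (721 to 868 and 765 to 939 CPM), 8 mural cell markers (865 to 1241 and 860 to 1104 CPM) and 8 macrophage markers (177 to 227 and 163 to 221 CPM). They also overlapped for 6 lymphocyte markers (1.15 to 2.88 CPM in KO hearts and 2.67 to 5.33 CPM in WT hearts), 4 neutrophil markers (1.79 to 3.42 and 2.37 to 2.91 CPM), 4 erythroid markers (243 to 311 and 200 to 297 CPM) and 4 atrial markers (12.7 to 25.3 and 10.5 to 20.5 CPM). The haemoglobin gene Hba-a1 had no read in any heart, while the haemoglobin gene Beta-s averaged 176 CPM in KO hearts and 131 CPM in WT hearts. The cause of the empty row was not tested. The part of cell composition in the differences of the p53 genes was not tested.

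The genes whose levels most resembled those of Trp53 and Cdkn1a across the 9 hearts were chosen by the smallest root mean square difference of mean-centred log2 CPM. For Trp53 these were Mras (0.11), Slc2a12 (0.11), Rbm12b2 (0.12), Lgals9 (0.13) and Ankrd13c (0.14). For Cdkn1a they were Tceb1 (0.13), Efr3a (0.13), Emcn (0.14), Gng12 (0.14) and Ugp2 (0.15). Emcn also stands in the list of endothelial markers. The library trends described above run in opposite directions in KO and WT hearts, and their part in these resemblances was not tested. With GC and length trends removed, the 5 genes nearest to Cdkn1a were at -0.05 to 0.24 on the log2 scale, apart from the -1.0 of Cdkn1a itself. Of those nearest to Trp53, Mras (-0.79) and Lgals9 (-0.64) stood near its -0.78, and Slc2a12 (-0.08), Rbm12b2 (0.12) and Ankrd13c (0.24) did not.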

How the data were processed

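Poly(A) RNA of 4 KO and 5 WT hearts was sequenced single-end without strand information, per the labels' protocols. The authors deposited read counts per gene and, in a second table, FPKM values for the same hearts. The submitters' processing notes name TopHat2 2.0.10 and TopHat, Bowtie2, HTSeq, Cufflinks 2.1, edgeR and DESeq, and build mm10, with no order or role. The sources used here do not give the annotation or the strand setting. Tests on counts used edgeR 4.0.16 under R 4.3.3 (TMM, default filter by group of at least 10 reads and 15 in total, quasi-likelihood F tests, no block), with Benjamini-Hochberg adjustment over all tested genes and a threshold of 0.05. Standard errors derive from the F statistic, and P-values weigh the difference between the groups against the spread between these hearts. FPKM values were tested with limma 3.58.1 on log2(FPKM + 1) where a gene's mean reached 0.5.

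For the correction, lowess curves (span 0.3) were fitted within each heart to the log2 deviations of genes, over GC content first and then over transcript length, and entered as offsets. GC content and length came from the longest protein-coding transcript per symbol in GENCODE vM21 on GRCm38, for 99.0% of tested genes. Alternatives were DESeq2 1.42.0, limma-voom weighted by sample quality, upper-quartile and RLE factors, a filter at a mean of 1 CPM or none, each heart left out, both shallow WT hearts left out, the replicate number as a block, the GC and length correction alone and with the block, omission of mitochondrially encoded genes and Rn45s, a 0.1 threshold, and, for FPKM, pseudocounts of 0.1 and 0.01, no filter and median centring. Combining the correction with omission of KO heart 1, or of both shallow WT hearts, was added after seeing the data. The members and lists were chosen with earlier results of these data known. Named genes were all 10 members and, from each list, up to 4 called genes with the smallest p whose groups did not overlap. No pair of hearts in a group agreed within sampling noise (chi-square per degree of freedom 4.29 to 96.7). A planned comparison of protein sequences was not made.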

Additional observations from a re-analysis of the deposited data

Results flagged for a closer look

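In 7 of 90 groups examined, 1 heart stood far from the others of its genotype by Dixon's criterion, which chance meets in about 1 in 20 groups. Ccng1 in KO heart 1 was at 296 CPM, against 108 to 119 CPM in the other KO hearts, and at 117 FPKM, against 37.4 to 43.8 FPKM. Mdm4 in KO heart 1 was at 2.96 FPKM, against 1.64 to 1.84 FPKM in the other KO hearts. Mapk8 in KO heart 1 was at 7.22 CPM, against 5.23 to 5.42 CPM in the other KO hearts. E2f1 in KO heart 4 was at 4.22 CPM, against 1.39 to 1.52 CPM in the other KO hearts. Zmat3 in KO heart 4 was at 11.5 CPM, against 10.5 to 10.6 CPM in the other KO hearts, a small difference beside very little spread. Phlda3 in WT heart 3 was at 4.74 CPM, against 3.16 to 3.59 CPM in the other WT hearts, from 16 reads.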

How the results depend on the processing

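As counted, 2 of the 10 genes were higher and 4 lower in KO hearts. The count of higher genes was 1 with limma-voom (Gadd45g, adjusted p = 0.0662, had no call) and with the replicate number as a block, 1 to 2 when hearts were left out, and 0 in each fit with GC and length trends removed. The count of lower genes was 2 with the correction, with the correction and block, and with the correction without both shallow WT hearts. It was 3 without KO heart 1, without WT heart 3, with the block, and with the correction without KO heart 1. Over all genes, the correction with the block called 1545 higher and 1837 lower, and the correction without both shallow WT hearts 2039 and 2025, against 3313 and 3190 as counted. The pathway lists together had 11 higher and 23 lower with the correction and block, against 22 and 43 as counted. Same-numbered hearts did not deviate together (correlations of -0.11, 0.04, -0.06 and -0.26). With so few hearts these correlations do not decide whether the numbers pair them. With the block, Trp53 (-0.45, adjusted p = 0.0747, edgeR) and Gadd45g (0.92, adjusted p = 0.0567) had no call. In FPKM, 2 genes were higher and 4 lower after centring, against 4 and 0 as deposited, and 2 to 5 and 0 to 1 when hearts were left out. Signs turned only for differences without a call in either fit, apart from Gadd45a in FPKM, Lin54 and Ppp2r5b. Gadd45a was at 0.0004 without the filter, 0.10 with limma-voom, -0.19 to 0.15 when hearts were left out, and 0.10 without both shallow WT hearts. With the correction alone, with the block, without KO heart 1 and without both shallow WT hearts, Mdm2 was at 0.21, 0.19, 0.22 and 0.27, Gadd45b at -0.34, -0.44, -0.55 and -0.17, and Zmat3 at 0.11, 0.027, 0.17 and 0.18. Corrected without KO heart 1, Gadd45a was at 0.14, Lin54 at 0.005 and Ppp2r5b at -0.072. Corrected without both shallow WT hearts, Gadd45a was at 0.085 and Ppp2r5b at -0.012. In centred FPKM, Trp53 was at -0.31, Mdm2 at -0.14 and Gadd45a at -0.0095. In FPKM with hearts left out, Mdm4 ranged from -0.16 to 0.065, Cdkn1a from -0.14 to 0.10, and Trp53 from -0.0061 to 0.30. The cause of these changes was not tested. Depth limits the low genes most, since Phlda3 had 10 and Gadd45b 12 reads in the shallowest hearts.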

Other observations

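The ratio of Mdm2 to Trp53 in FPKM, the inhibitor to its target, was 0.99, 0.67, 0.75 and 0.74 in KO hearts 1 to 4 and 0.61, 1.01, 0.59, 0.60 and 0.67 in WT hearts 1 to 5. The KO hearts lay within the range of the WT hearts, in which WT heart 2 was alone above 0.67. The ratio of Cdkn1a to Trp53 was 0.97, 0.93, 0.87 and 1.04 in KO hearts and 1.19, 1.44, 1.10, 0.92 and 1.01 in WT hearts, with overlapping ranges.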
